A study of Caenorhabditis elegans with 21 samples.

Results

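The cytochrome P450 genes of Caenorhabditis elegans were followed across 7 genotypes of day 1 adults. A locus was counted as a member where 1 of the gene names it carries begins with "cyp-", and 64 of the 33886 loci in the count table met this rule. These loci name 76 cyp genes. A total of 52 loci hold 1 gene, 58 hold cyp genes only, and 6 also hold other genes, so that a change of these 6 cannot be assigned to the P450 gene. Of the 64 loci, 48 had enough counts to be tested among 12091 tested loci, and 16 did not: their highest count in any library lay between 1 and 17.

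Cytochrome P450 enzymes are heme proteins that insert an oxygen atom into small molecules. They receive electrons from NADPH through a P450 reductase, encoded in the worm by emb-8. Some worm P450s take part in detoxification of foreign compounds, others in making eicosanoids from polyunsaturated fatty acids, steroid hormones or eggshell lipids, and many genes of the larger families lie side by side in tandem arrays. The best studied steroid P450 of the worm, DAF-9, carries no cyp name in these tables and so is not a member.

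Whole animals were sampled as N2 wild-type, as daf-2(e1370) mutants, and as 5 double mutants, which all carry daf-2(e1370) together with an allele of daf-16, namely mu86, mg54, tm5030, tm5032 or tm6659, with 3 libraries of each genotype and 21 in all. The worm's receptor for insulin-like peptides is the product of daf-2, e1370 lowers its activity, and daf-16 encodes the FoxO transcription factor that this receptor holds back. The series includes a null allele (mu86), an allele that removes the a and f isoforms (mg54), a pair of independent daf-16a alleles (tm5030 and tm5032) and a daf-16f allele (tm6659), and its comparisons ask how the response to low receptor activity depends on each isoform. Below, "daf-2" stands for daf-2(e1370) and an allele name for the double mutant with daf-2(e1370); a gene's level is in CPM, the count scaled by library size with the TMM method, or in FPKM where levels of different genes are compared. Animals came from a 4 h egg-lay, grew at 15 °C to the L4 stage and then for 20 to 24 h at 20 °C, and plates with males were thrown away. The labels do not say whether the 3 libraries came from separate cultures, so the p-values measure the spread between libraries.

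Library totals ran from about 30384800 to about 47170600 counted fragments. The daf-16 locus was at 163 ± 18.6 CPM in daf-2 (SD, n = 3), at 154 ± 11.7 in mu86, at 144 ± 11.1 in tm5030, at 165 ± 13.7 in tm5032, at 94.2 ± 0.212 in mg54 and at 57.7 ± 11.0 in tm6659. Against daf-2 it was called lower in mg54 and tm6659 (edgeR, adjusted p = 0.000191 and 1.49e-06) and was not called in mu86, tm5030 or tm5032 (adjusted p = 0.796, 0.886 and 0.999), so the count of the locus does not by itself show the lesion of these 3 alleles. Libraries also differed along an axis shared by all genotypes: summed markers of sperm (8 of 10 genes matched), intestine, hypodermis and body wall muscle were higher in replicate 3 than in replicate 2 in 7 of 7 genotypes, and summed oocyte, early embryo and neuron markers were lower in 7 of 7. No matched marker was at 0 in every library. In bulk RNA, fewer cells of a type and less RNA per cell cannot be told apart.

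On the per-length FPKM scale, of the 58 loci with cyp genes only, 16 averaged under 0.1 FPKM, 15 between 0.1 and 1, 20 between 1 and 10, and 7 over 10. The highest was cyp-35A2, a member of a subfamily known for induction by foreign compounds and for a role in fat storage, at a mean of 136 FPKM over all libraries. It was followed by cyp-31A5 at 93.7 FPKM, cyp-31A3 at 52.9 FPKM and cyp-35C1 at 48.96 FPKM. The cyp-34A6 to cyp-34A10 locus averaged 26.1 FPKM, the cyp-35A3/cyp-35A4 locus 23.5 FPKM and the cyp-25A1/cyp-25A2 locus 21.8 FPKM, and these 3 neighbours in the order swapped places between genotypes. The next, cyp-43A1, was at 9.06 FPKM. The same 7 loci held the top 7 places in N2 and in daf-2.

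**Figure D1:**
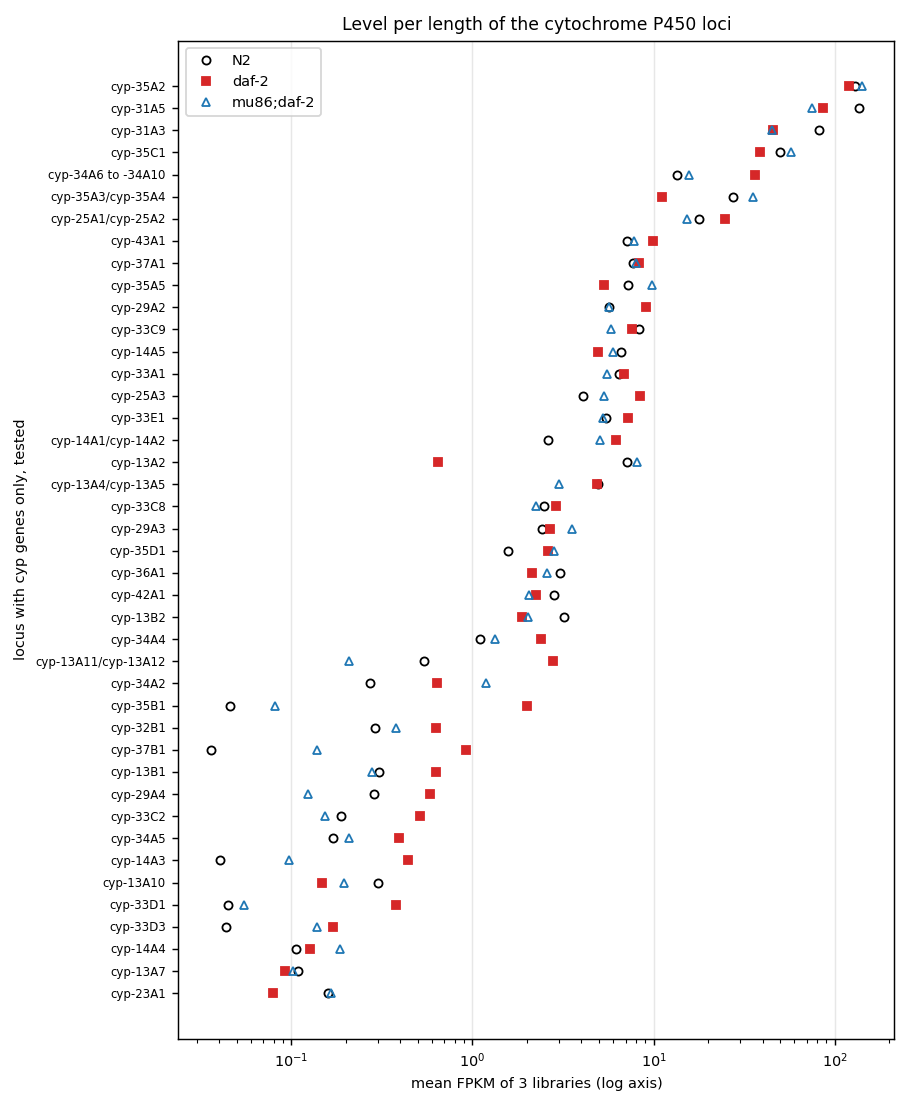
Mean FPKM of 3 libraries (log axis) of the 42 tested loci that hold cyp genes only, ordered by their mean over all genotypes, with N2 as open circles, daf-2 as filled squares and mu86 as open triangles. The symbols lie close together at the top locus, cyp-35A2, with 129 FPKM in N2 and 120 FPKM in daf-2, and far apart at low loci such as cyp-35B1, cyp-37B1 and cyp-33D1. FPKM sums over all loci ran from 1295870 to 1816120 in N2 libraries and from 756420 to 1247140 in daf-2 libraries. The direction and size of a difference between genotypes are therefore to be read from the log2 differences of counts, which for cyp-35A2 was positive and not called.

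The summed level of the 58 cyp-only loci was 512 ± 55.7 CPM in N2 (SD, n = 3) and 686 ± 78.1 CPM in daf-2. In the daf-16 mutants it lay between 652 ± 56.2 CPM in tm6659 and 719 ± 53.8 CPM in tm5032. The lowest daf-2 library, at 597 CPM, was above the highest N2 library, at 574 CPM, while the daf-16 mutants overlapped daf-2. The 7 loci over 10 FPKM weigh most in this sum.

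More P450 loci were higher than lower in daf-2 than in N2. Of the 48 tested, 23 were called higher and 3 lower at an adjusted p under 0.05, against 10.9% of all tested loci called higher and 5.84% called lower. A total of 21 of the 26 differed by at least 2-fold. The median log2 difference was 0.75 for the members and 0.08 for all tested loci. A positive difference was found in 36 of the 48 members, a count not taken over all loci. In 27 members every daf-2 library was above every N2 library, and in 4 every daf-2 library was below, against 21.6% and 17.3% of all tested loci. With RLE in place of TMM scaling 19 members were called higher and 3 lower, against 9.64% and 7.94% of all loci. With upper-quartile scaling they were 24 and 3, against 10.3% and 10.1%. Of the calls over all loci, 65.0% were higher under TMM, against 54.8% under RLE and 50.4% under upper-quartile factors. With limma on log2(FPKM + 1), where measure, tool and loci tested all differ, 8 members were called higher and 2 lower, against 2.6% and 3.92% of all loci. The medians in that fit were 0.01 for the members and -0.12 for all loci. Over the loci tested with edgeR they were 0.05 and -0.37.

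Members of most families were among those higher in daf-2. Counting the loci with cyp genes only, 6 of 7 tested CYP33 loci were called higher, 3 of 4 CYP34 loci, 2 of 6 CYP35 loci, 2 of 4 CYP14 loci, 2 of 3 CYP29 loci, and each of the 2 tested CYP25 loci and 2 tested CYP37 loci. In the CYP13 family 2 of 7 were called higher and 1 lower. Both tested CYP31 loci were not called, with log2 differences of -0.23 for cyp-31A3 and -0.05 for cyp-31A5. CYP31 enzymes are needed for the lipid layer that makes the eggshell impermeable. Their RNA was lower in replicate 3 than in replicate 2 in 7 of 7 genotypes. So were the summed oocyte, early embryo and neuron markers, and 19.9% of all tested loci.

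The largest difference between daf-2 and N2 was that of cyp-35B1, also known as dod-13, a gene described in earlier work as lying downstream of DAF-16. Its level was 0, 0.0954 and 0.0519 CPM in the N2 libraries and 4.61, 3.21 and 2.23 CPM in the daf-2 libraries. It was 0.126, 0.131 and 0.164 CPM in mu86 and 0.0317, 0.0681 and 0.0836 CPM in mg54. All daf-2 libraries stood far above those of these 3 genotypes, with no overlap. The single-isoform mutants were at 2.18, 1.32 and 1.88 CPM (tm5030), 1.38, 1.30 and 1.65 CPM (tm5032) and 1.83, 2.54 and 1.28 CPM (tm6659). They stood above mu86 and mg54; tm5030 and tm5032 lay below every daf-2 library, and tm6659 overlapped daf-2. The log2 difference was 6.11 ± 0.61 (SE) for daf-2 against N2 (adjusted p = 3.1e-06), -4.55 ± 0.53 for mu86 against daf-2 (adjusted p = 2.23e-05) and -5.69 ± 0.59 for mg54 against daf-2 (adjusted p = 7.24e-06). The N2, mu86 and mg54 values rest on few counts, so the size of every fold taken against them depends on how counts near 0 are handled. These 3 calls were kept whichever single library was left out.

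The gene is part of an array on chromosome V. In the Ensembl annotation of assembly WBcel235 cyp-35A5 lies at 3936326 to 3938597, cyp-35B1 at 3939032 to 3941237, cyp-35B2 at 3942160 to 3944523 and cyp-35B3 at 3945353 to 3947044, all on the forward strand, followed on the reverse strand by cyp-34A5 at 3955701 to 3957708 and cyp-34A6 to cyp-34A10, the last of which ends at 3972991. Neighbours in this array did not all behave like cyp-35B1. The adjacent cyp-35A5 was not called (log2 difference 0.12 ± 0.27, adjusted p = 0.771). The other neighbour, cyp-35B2, was too low to test, with 0 counts in every N2 library and 11, 6 and 6 counts in the daf-2 libraries. Taking 3 counts over the N2 group as the floor, its daf-2 level was 8.88-fold above that floor. The floor allows for counting error in N2 only. Error in the 23 counts of daf-2 and the spread between libraries are not covered.

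The cyp-34A6 to cyp-34A10 locus, 5 genes counted as 1, had the highest FPKM of the cyp-only loci called in this comparison. It held 13.3, 11.5 and 18.4 CPM in N2 and 64.2, 54.2 and 57.5 CPM in daf-2. It held 23.0, 24.6 and 30.1 CPM in mu86 and 24.6, 19.9 and 31.2 CPM in mg54. The levels were 47.8, 37.5 and 56.2 CPM in tm5030, 52.0, 43.3 and 58.6 CPM in tm5032 and 55.8, 56.2 and 51.1 CPM in tm6659. Libraries of mu86 and mg54 lay between those of N2 and daf-2 without reaching either, whereas the single-isoform mutants overlapped daf-2. The log2 difference was 2.03 ± 0.20 for daf-2 against N2 (adjusted p = 3.36e-06), -1.18 ± 0.19 for mu86 against daf-2 (adjusted p = 0.000588) and -1.22 ± 0.19 for mg54 against daf-2 (adjusted p = 0.000523). Of its relatives, cyp-34A5 was higher in daf-2 by a log2 difference of 1.93 ± 0.47 and cyp-34A2 by 1.93 ± 0.59, and cyp-34A4 was not called (1.66 ± 0.56, adjusted p = 0.0538).

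The CYP13 family held members that moved in opposite directions. The cyp-13A11/cyp-13A12 locus lies on chromosome III (13021006 to 13028017), and CYP-13A12 is known for acting in the behavioural response to a return of oxygen. The locus was at 0.791, 0.608 and 0.264 CPM in N2 and at 4.65, 5.54 and 2.75 CPM in daf-2. It was at 0.180, 0.473 and 0.398 CPM in mu86 and at 0.575, 0.859 and 0.337 CPM in mg54. Every daf-2 library exceeded every library of these 3 genotypes. Levels were 1.31, 1.797 and 1.48 CPM in tm5030, 1.82, 2.31 and 1.63 CPM in tm5032 and 3.32, 4.52 and 2.88 CPM in tm6659. The log2 difference was 2.96 ± 0.44 for daf-2 against N2 (adjusted p = 0.000182) and -3.63 ± 0.46 for mu86 against daf-2 (adjusted p = 5.1e-05). Its counts carry fractions in every library, so whole fragments were not simply tallied and the split of fragments between copies is uncertain.

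The opposite course was that of cyp-13A2, on chromosome II at 9783384 to 9787629 on the reverse strand. Its level was 9.05, 5.76 and 7.65 CPM in N2 and 0.690, 1.18 and 1.17 CPM in daf-2. It was 12.8, 12.5 and 13.5 CPM in mu86 and 7.49, 8.14 and 12.7 CPM in mg54. All daf-2 libraries lay below all libraries of these 3 genotypes. In the daf-16a mutants it was 6.54, 3.61 and 7.10 CPM (tm5030) and 6.38, 4.87 and 6.61 CPM (tm5032), again above every daf-2 library, while tm6659 overlapped daf-2 at 0.619, 0.708 and 1.05 CPM. The log2 difference was -2.88 ± 0.32 for daf-2 against N2 (adjusted p = 9.04e-06), 3.67 ± 0.32 for mu86 against daf-2 (adjusted p = 1.2e-06) and 3.21 ± 0.32 for mg54 against daf-2 (adjusted p = 5.3e-06). These calls were kept under each of the alternatives tried. Of its neighbours in the array between 9779181 and 9807569, the loci cyp-13A1, cyp-13A3, cyp-13A6 and cyp-13A8 were too low to test, and the tested cyp-13A7 and cyp-13A4/cyp-13A5 loci were not called in daf-2 against N2.

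The other 2 members called lower in daf-2 hold further genes. They were the F42A9.6/cyp-33E2 locus (log2 difference -0.43 ± 0.10, adjusted p = 0.00514) and the locus of cyp-32A1 with rps-30 and others (-0.33 ± 0.09, adjusted p = 0.0208). The gene cyp-33E2 is known for making eicosanoids that affect pharyngeal pumping, and rps-30 encodes a ribosomal protein, so that cyp-13A2 was the only cyp-only locus called lower.

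**Figure D2:**
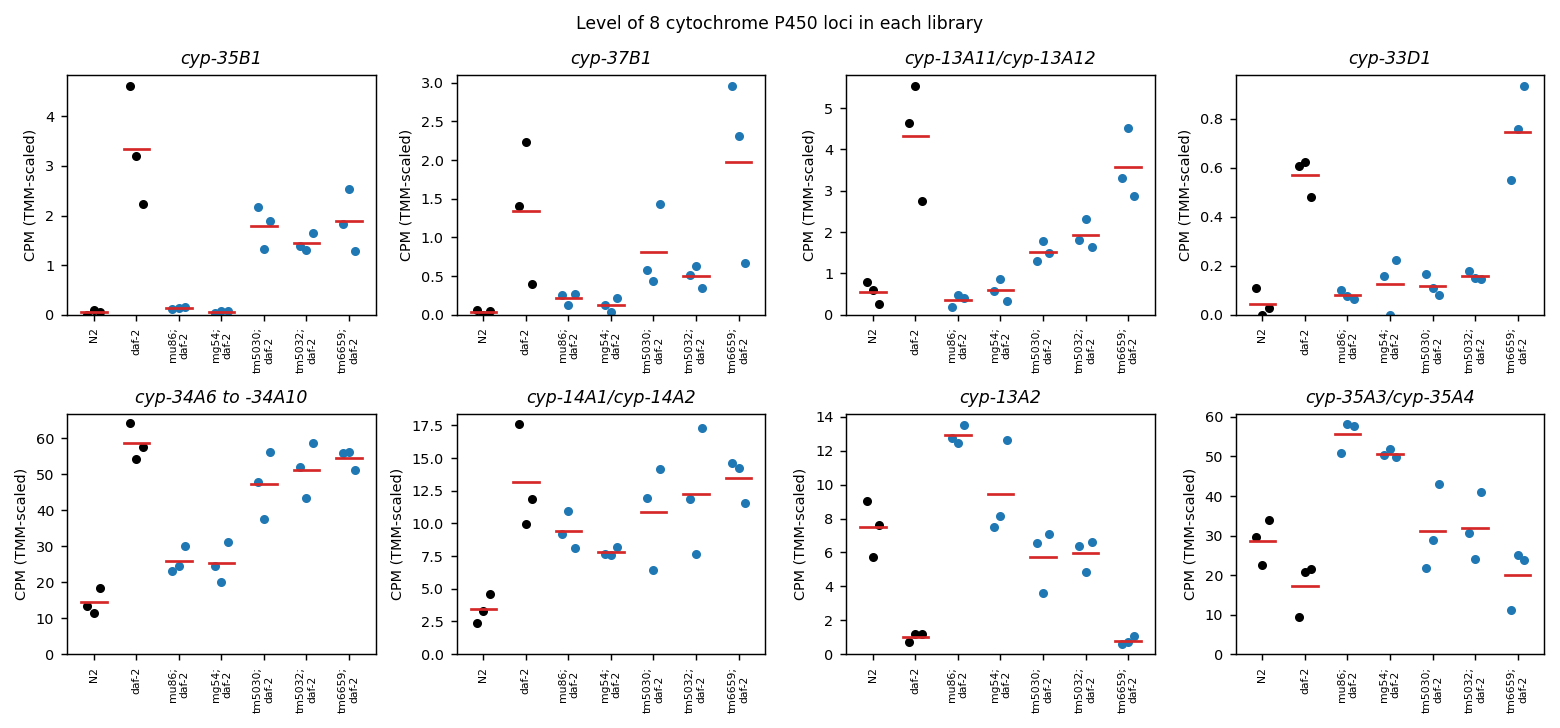
TMM-scaled CPM of 8 P450 loci in each of the 21 libraries, by genotype; each point is a library and each red line the mean of 3, with N2 and daf-2 in black and the daf-16;daf-2 double mutants in blue. At cyp-35B1 the daf-2 libraries lie between 2.23 and 4.61 CPM and those of mu86 and mg54 near 0, and at cyp-13A2 daf-2 and tm6659 lie lowest.

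Among the CYP14 genes on the X chromosome, in a subfamily whose members respond to foreign compounds, the cyp-14A1/cyp-14A2 locus was at 2.38, 3.27 and 4.59 CPM in N2 and at 17.6, 9.99 and 11.9 CPM in daf-2. No library of one genotype reached those of the other (log2 difference 1.95 ± 0.33, adjusted p = 0.000533). It was at 7.68, 7.59 and 8.22 CPM in mg54, 11.9, 6.45 and 14.1 CPM in tm5030, 11.8, 7.68 and 17.3 CPM in tm5032 and 14.6, 14.2 and 11.6 CPM in tm6659, and no mutant was called against daf-2 at this locus. The neighbouring cyp-14A3, at 0, 0.0318 and 0.104 CPM in N2 and 0.911, 0.458 and 0.693 CPM in daf-2, was also called (3.87 ± 0.91, adjusted p = 0.00592). A further locus beside them, cyp-14A4, was not called (0.92 ± 0.69), nor was cyp-14A5 on chromosome V (0.21 ± 0.27).

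Several members of low abundance had large log2 differences with wide errors. The gene cyp-37B1 was at 0.0656, 0 and 0.0519 CPM in N2 and at 1.41, 2.23 and 0.392 CPM in daf-2 (log2 difference 4.89 ± 0.90, adjusted p = 0.000972). Its relative cyp-37A1, at a higher level, differed by 0.69 ± 0.12 (adjusted p = 0.000934). In the CYP33 family the log2 differences were 3.44 ± 0.77 for cyp-33D1, 2.69 ± 0.92 for cyp-33D3, 2.03 ± 0.34 for cyp-33C2, 1.00 ± 0.18 for cyp-33E1, 0.68 ± 0.15 for cyp-33A1 and 0.48 ± 0.13 for cyp-33C9. The sign of cyp-33C9 reversed on the FPKM scale. Each of these was called.

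Of the members at 1 CPM or more, cyp-25A3 was at 3.78, 2.46 and 7.09 CPM in N2 and at 16.4, 12.7 and 10.7 CPM in daf-2 (log2 difference 1.58 ± 0.43, adjusted p = 0.0164). The cyp-25A1/cyp-25A2 locus beside it was at 17.4, 19.3 and 21.7 CPM in N2 and at 24.9, 44.9 and 54.04 CPM in daf-2 (1.09 ± 0.36, adjusted p = 0.0473). The groups did not overlap at either locus. For cyp-29A2 they did: N2 libraries were at 5.82, 4.99 and 8.71 CPM and daf-2 libraries at 8.34, 13.6 and 24.9 CPM (1.26 ± 0.35, adjusted p = 0.02).

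For cyp-43A1 the N2 libraries were at 8.93, 7.16 and 10.6 CPM and the daf-2 libraries at 18.5, 17.6 and 17.8 CPM (log2 difference 1.02 ± 0.16, adjusted p = 0.000354). For cyp-33E1 they were at 5.40, 5.25 and 5.73 CPM and at 11.2, 11.2 and 10.4 CPM (1.00 ± 0.18, adjusted p = 0.000874). For cyp-35D1 they were at 1.95, 1.30 and 1.97 CPM and at 5.55, 3.47 and 3.19 CPM (1.22 ± 0.27, adjusted p = 0.00461). At these 3 loci daf-2 stood above N2 in every library. For cyp-34A2 the N2 libraries were at 0.197, 0.350 and 0.363 CPM and the daf-2 libraries at 2.46, 0.524 and 0.482 CPM (adjusted p = 0.0307), where a single daf-2 library stood far above its companions.

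The remaining members called higher were cyp-13B1 (log2 difference 1.70 ± 0.37), cyp-32B1 (1.76 ± 0.45) and cyp-29A4 (1.63 ± 0.51). Of the members with known roles that were not called, cyp-35A2 differed by 0.48 ± 0.19 (adjusted p = 0.0982), the eicosanoid-forming cyp-29A3 by 0.70 ± 0.32 (adjusted p = 0.15), and cyp-36A1, which acts downstream of the hypoxia factor HIF-1 in the worm, by 0.00 ± 0.33.

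In 15 of the 26 members the call against N2 was kept whichever single library was left out. The other 11 lost it at least once. The call of cyp-33C9 was lost without any of the 6 libraries (adjusted p up to 0.116). The calls of cyp-25A1/cyp-25A2 and cyp-33D3 were each lost without 5 of the 6 (up to 0.208 and 0.173): all but daf-2 replicate 1 and all but N2 replicate 2. The calls of cyp-34A2 (without any N2 replicate or daf-2 replicate 1, up to 0.395) and cyp-29A4 (without N2 replicate 1 or 3 or daf-2 replicate 1 or 2, up to 0.134) were lost without 4. Those of cyp-25A3 (without N2 replicate 1 or 2 or daf-2 replicate 1, up to 0.0976) and cyp-29A2 (without N2 replicate 1 or 2 or daf-2 replicate 3, up to 0.186) were lost without 3. Those of cyp-34A5 (without replicate 1 of N2 or of daf-2, up to 0.0726) and cyp-33A1 (without N2 replicate 2 or daf-2 replicate 1, up to 0.0577) were lost without 2. The call of cyp-35D1 was lost without daf-2 replicate 1 (0.0519) and that of cyp-32B1 without N2 replicate 3 (0.0541).

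Markers of tissues were given beside these results and their part in them was not tested. The summed intestine markers (6 of 6 matched), the tissue in which many worm P450 genes are known to be expressed, ranged over 790 to 1040 CPM in N2 and 845 to 1068 CPM in daf-2. Within that list ges-1, an intestinal esterase, was itself higher in daf-2 (log2 difference 1.801 ± 0.0956, adjusted p = 5.07e-09), and lower in mu86 and mg54 than in daf-2 (-1.60 and -1.62). Body wall muscle markers (4 of 4) ranged over 898 to 2071 CPM in N2 and 1361 to 3006 CPM in daf-2, and hypodermis markers (6 of 6) over 1075 to 2218 and 1548 to 2764 CPM. Sperm markers ranged over 46.4 to 77.5 CPM in N2 and 62.3 to 148 CPM in daf-2, and oocyte markers (9 of 9) over 8350 to 9584 and 6925 to 8309 CPM. All of these sums except the oocyte sum overlapped between the genotypes.

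Some P450 loci were lower and others higher in the daf-16 null mu86 than in daf-2. In mu86 against daf-2, 2 of 48 members were called higher and 8 lower, against 4.13% and 6.16% of all tested loci. The share called higher was thus close to the background. The median log2 difference was -0.18 for the members and -0.01 for all loci. With upper-quartile scaling 4 were called higher and 8 lower, against 6.15% and 5.6% of all loci. With only loci at a mean of at least 2 CPM, 4 of 32 were higher and 2 lower, against 5.93% and 6.69%. Every mu86 library was above every daf-2 library in 8 members and below in 18, against 12.5% and 15.2% of all loci. This comparison uses the same daf-2 libraries as the one against N2, so the values of a locus in the 2 comparisons are not independent.

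Beside the loci given above, those called lower in mu86 were cyp-33C2 (log2 difference -1.74 ± 0.33, adjusted p = 0.00202), cyp-29A4 (-2.14 ± 0.53, adjusted p = 0.0134), cyp-33D1 (-2.74 ± 0.73, adjusted p = 0.019), cyp-37B1 (-2.63 ± 0.75, adjusted p = 0.0311) and cyp-13B1 (-1.24 ± 0.36, adjusted p = 0.0349). All of them average under 1 CPM. The last 4 lost the call when a library was left out: cyp-29A4 without replicate 2 of daf-2 or of mu86 (adjusted p up to 0.0805), cyp-37B1 and cyp-33D1 without any library except daf-2 replicate 3 (up to 0.148 and 0.0769), and cyp-13B1 without any of the 6 (up to 0.159). The count of 10 calls became 6 without daf-2 replicate 2 and 6 without mu86 replicate 2.

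The second locus called higher in mu86 was cyp-35A3/cyp-35A4, from the same subfamily as cyp-35A2. In N2 its levels were 29.5, 22.6 and 33.9 CPM, in daf-2 9.31, 20.9 and 21.6 CPM, in mu86 50.99, 58.3 and 57.6 CPM and in mg54 50.5, 51.8 and 49.8 CPM. In tm5030 they were 21.7, 28.9 and 43.0 CPM, in tm5032 30.6, 23.9 and 41.1 CPM and in tm6659 11.1, 24.9 and 23.8 CPM. The libraries of mu86 and mg54 stood above those of every other genotype. The log2 difference was 1.69 ± 0.34 for mu86 against daf-2 (adjusted p = 0.00302), and daf-2 against N2 was not called (-0.73 ± 0.33, adjusted p = 0.142). Beside this result, the intestine markers ranged over 947 to 1466 CPM in mu86, 983 to 1541 CPM in mg54 and 845 to 1068 CPM in daf-2, and their part in it was not tested.

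In mg54 against daf-2, 3 members were called higher and 6 lower, against 3.77% and 5.57% of all tested loci. With only loci at a mean of at least 2 CPM the split was 3 and 2, against 5.2% and 6% of all loci. With log2(FPKM + 1) the split was 2 and 7, against 2.17% and 2.28%. With the replicate number as a block it was 4 and 12, against 8.41% and 10.6% of all loci. The median log2 difference was -0.29 for the members and -0.01 for all loci. The members called lower were cyp-35B1, cyp-13A11/cyp-13A12 (-2.88 ± 0.44, adjusted p = 0.000374), cyp-34A6 to cyp-34A10, cyp-33C2 (-1.81 ± 0.34, adjusted p = 0.00179), cyp-37B1 (-3.32 ± 0.80, adjusted p = 0.0116) and cyp-29A4 (-2.10 ± 0.54, adjusted p = 0.0174). Those called higher were cyp-13A2, cyp-35A3/cyp-35A4 (1.55 ± 0.34, adjusted p = 0.00623) and cyp-35A5.

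The level of cyp-35A5 was 4.69, 9.79 and 10.6 CPM in daf-2 and 16.2, 19.1 and 14.9 CPM in mg54, with no overlap (log2 difference 1.00 ± 0.27, adjusted p = 0.0272). In mu86, at 14.9, 18.1 and 13.0 CPM, it was not called (0.87 ± 0.27, adjusted p = 0.0508). The call in mg54 was lost without daf-2 replicate 1 or mg54 replicate 2 (adjusted p up to 0.0834). That of cyp-29A4 was lost without daf-2 replicate 2, mg54 replicate 1 or mg54 replicate 3 (up to 0.0971), and that of cyp-37B1 without daf-2 replicate 2, mg54 replicate 1 or mg54 replicate 2 (up to 0.0591). The other 6 calls in mg54 were kept whichever library was left out.

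Compared directly, mg54 and mu86 gave 0 called members with edgeR, 0 at an unadjusted p under 0.05, and 0 with DESeq2, limma-voom or limma on FPKM, against 0.00827% of all loci called higher and 0.0248% called lower. The log2 difference of cyp-35B1 was -1.13 ± 0.64 and that of cyp-13A11/cyp-13A12 was 0.75 ± 0.45. The errors allow differences of this size, and the absence of a call does not show that the alleles act alike.

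**Figure D3:**
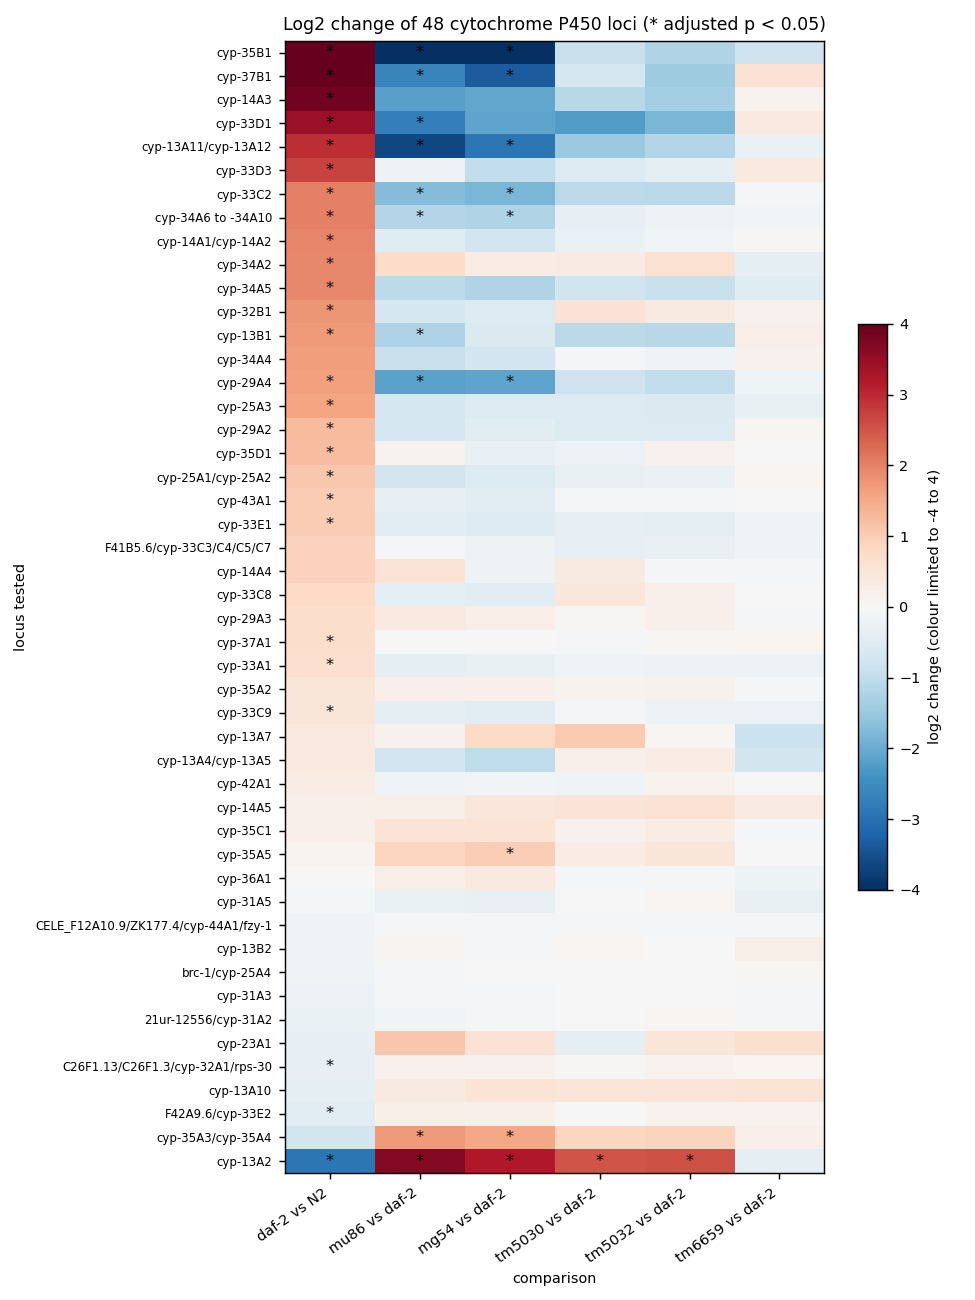
Log2 difference of the 48 tested P450 loci in 6 comparisons (columns), with the colour limited to -4 to 4 and an asterisk where the adjusted p of edgeR was under 0.05; loci are ordered by the difference between daf-2 and N2. The first column is mostly positive and holds 26 calls, the mu86 and mg54 columns hold 10 and 9 calls, and the columns of tm5030, tm5032 and tm6659 hold 1, 1 and 0.

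Calls were few in the single-isoform mutants, over all loci as among the members. In tm5030 against daf-2, 1 member was called higher and 0 lower, against 0.331% and 0.579% of all loci. The same counts held in tm5032, against 0.488% and 0.554%. With DESeq2 the lower calls were 2 in tm5030 and 0 in tm5032, against 1.31% and 1.12% of all loci. Members at an unadjusted edgeR p under 0.05 in either direction were 6 and 9, a count not taken over all loci. With the replicate number as a block each comparison had 1 member higher and 1 lower. Of all loci 1.63% were then higher and 2.13% lower in tm5030, and 1.68% and 1.95% in tm5032. Without the block the member called was cyp-13A2 in each, with a log2 difference of 2.50 ± 0.31 in tm5030 (adjusted p = 0.000552) and 2.55 ± 0.31 in tm5032 (adjusted p = 0.000338). This call was kept whichever library was left out. The 2 daf-16a alleles set against each other gave 0 called members with edgeR, 0 at an unadjusted p under 0.05 and 0 with DESeq2, limma-voom or limma on FPKM (0.0165% and 0.00827% of all loci were called higher and lower), and the difference of cyp-13A2 between them was -0.05 ± 0.29.

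In tm6659 against daf-2, 0 of 48 members were called by edgeR, 0 had an unadjusted p under 0.05, and DESeq2, limma-voom and limma on FPKM called 0, where 0.0414% and 0.132% of all loci were called higher and lower. Log2 differences of the members ran from -0.86 to 0.65. For cyp-13A2 the difference was -0.36 ± 0.31 and for cyp-35B1 it was -0.83 ± 0.44.

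The mean of the daf-16a alleles was set against daf-2, tm6659 and mg54, and the tests against daf-2 and mg54 were added with earlier results known. Against daf-2 it gave 1 call, cyp-13A2 (log2 difference 2.53 ± 0.29, adjusted p = 0.000114), where 0.777% of all loci were called higher and 1.09% lower. With the replicate number as a block 2 were called higher and 4 lower, against 2.57% and 3.18%. The nearest to the threshold below it were cyp-33C2 (-1.07 ± 0.27, adjusted p = 0.0506) and cyp-13A11/cyp-13A12 (-1.33 ± 0.34, adjusted p = 0.0561).

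Against tm6659, the daf-16a mean gave 1 member higher and 2 lower, where 1.17% and 1.27% of all loci were called. With the replicate number as a block the members were 2 and 5, against 3.57% and 4.28%. Without the block the locus called higher was cyp-13A2 (log2 difference 2.88 ± 0.30, adjusted p = 2.58e-05), and every daf-16a library was above every tm6659 library. Those called lower were cyp-33D1 (-2.42 ± 0.54, adjusted p = 0.0207) and cyp-13B1 (-1.37 ± 0.29, adjusted p = 0.017). For cyp-33D1 the libraries were at 0.166, 0.110 and 0.0795 CPM in tm5030, at 0.178, 0.151 and 0.146 CPM in tm5032 and at 0.550, 0.760 and 0.935 CPM in tm6659. For cyp-13B1 they were at 0.359, 0.469 and 0.583 CPM, at 0.356, 0.423 and 0.584 CPM and at 1.26, 1.15 and 1.20 CPM. At both loci all tm6659 libraries stood above all daf-16a libraries, but these calls were lost without any 1 of the 3 tm6659 libraries (adjusted p up to 0.107 and 0.099).

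In mg54 against the daf-16a mean, 0 members were called higher and 3 lower, where 1.53% and 2.82% of all loci were called; with the replicate number as a block they were 3 and 6, against 4.26% and 5.74%. Without the block the 3 were cyp-35B1 (log2 difference -4.63 ± 0.56, adjusted p = 8.66e-05), cyp-34A6 to cyp-34A10 (-0.96 ± 0.17, adjusted p = 0.00318) and cyp-13A11/cyp-13A12 (-1.55 ± 0.39, adjusted p = 0.0313). The last was lost without mg54 replicate 1 or 3, tm5030 replicate 2, or tm5032 replicate 1 or 2 (adjusted p up to 0.17). At cyp-13A2 mg54 and the daf-16a mean differed by 0.69 ± 0.24 (adjusted p = 0.156).

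In mg54 against tm6659, a comparison also added with results known, 3 members were called higher and 7 lower, where 2.7% and 3.84% of all loci were called. With the replicate number as a block 4 were called higher and 8 lower, and the share of all loci in that fit is not given here. Without the block the largest differences were those of cyp-35B1 (log2 difference -4.86 ± 0.58, adjusted p = 3.63e-05), cyp-37B1 (-3.89 ± 0.80, adjusted p = 0.00501) and cyp-13A2 (3.57 ± 0.32, adjusted p = 2.23e-06). The others were cyp-13A11/cyp-13A12 (-2.61 ± 0.44), cyp-33D1 (-2.49 ± 0.69), cyp-29A4 (-1.92 ± 0.53), cyp-33C2 (-1.72 ± 0.34), cyp-35A3/cyp-35A4 (1.35 ± 0.33), cyp-34A6 to cyp-34A10 (-1.11 ± 0.19) and cyp-35A5 (0.99 ± 0.27). Of these 10 calls, 6 were kept whichever library was left out. The call of cyp-35A5 was lost without any of the 6 (adjusted p up to 0.164), those of cyp-33D1 without any except mg54 replicate 3 (up to 0.106) and of cyp-29A4 without any except mg54 replicate 2 (up to 0.147), and that of cyp-35A3/cyp-35A4 without replicate 1 of mg54 or of tm6659 (up to 0.0896). The count was 6 without either of these last 2 libraries.

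A test of additivity, added with results known, asked whether the effect of mg54 on the log scale equalled that of the daf-16a alleles, averaged, plus that of tm6659. It gave 0 members higher and 1 lower, where 0.0579% and 0.38% of all loci were called. With the replicate number as a block the members were 0 and 2, and the share of all loci in that fit is not given here. The member called without the block was cyp-35B1: the effects against daf-2 were -1.06 ± 0.37 for the daf-16a mean, -0.83 ± 0.44 for tm6659 and -5.69 ± 0.59 for mg54, which left a departure of -3.80 ± 0.70 (adjusted p = 0.0138). The call was lost without daf-2 replicate 3 (adjusted p = 0.055), mg54 replicate 1 (0.0772) or tm6659 replicate 2 (0.055), and with FPKM. It rests on the cyp-35B1 level in mg54, a mean of 0.0612 CPM from few counts. Over the alternatives tried, the departure ran from -4.13 to -0.54. At cyp-13A2 the effects were 2.53 ± 0.29, -0.36 ± 0.31 and 3.21 ± 0.32, and the departure of 1.05 ± 0.40 was not called (adjusted p = 0.693). At cyp-34A6 to cyp-34A10 they were -0.25 ± 0.16, -0.11 ± 0.19 and -1.22 ± 0.19, with a departure of -0.85 ± 0.26 (adjusted p = 0.308).

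**Figure D4:**
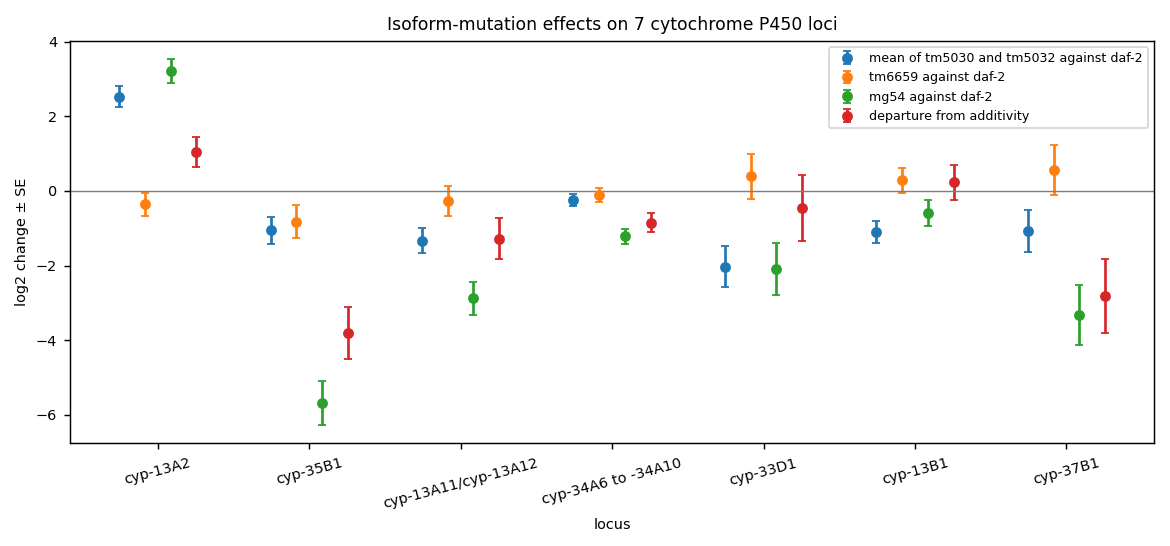
Log2 difference against daf-2 with its SE for the mean of tm5030 and tm5032, for tm6659 and for mg54, and the departure of mg54 from the sum of the other 2 effects, at 7 P450 loci. At cyp-13A2 the daf-16a mean stands at 2.53 and tm6659 at -0.36, while at cyp-35B1 the mg54 effect of -5.69 lies far below the effects of -1.06 and -0.83.

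Set against N2, mu86 showed which P450 loci differed from wild type when both daf-2 and daf-16 were mutated. Of 48 members 6 were called higher and 0 lower, where 1.35% and 0.174% of all loci were called. With a median log2 difference of 0.61 against 0.13 for all loci, 36 members had a positive difference, and 23 had an unadjusted p under 0.05 in either direction. Neither count was taken over all loci. DESeq2 called 4 higher and 0 lower, and its share of all loci in this comparison is not given here. On the FPKM + 1 scale, over the loci tested with edgeR, the medians were 0.00 for the members and -0.29 for all loci. With that scale 0 members were called. With the replicate number as a block 17 members were called higher and 6 lower, against 27.9% and 20.3% of all loci.

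The 6 called without the block were cyp-34A2 (log2 difference 2.65 ± 0.59, adjusted p = 0.0342), cyp-14A1/cyp-14A2 (1.46 ± 0.33, adjusted p = 0.034), cyp-35D1 (1.36 ± 0.27, adjusted p = 0.0204), cyp-34A6 to cyp-34A10 (0.85 ± 0.19, adjusted p = 0.0398), cyp-43A1 (0.68 ± 0.16, adjusted p = 0.0461) and cyp-37A1 (0.66 ± 0.12, adjusted p = 0.0144). Levels in mu86 were 2.44, 1.91 and 1.38 CPM for cyp-34A2 and 9.22, 11.0 and 8.08 CPM for cyp-14A1/cyp-14A2. They were 4.59, 5.41 and 3.45 CPM for cyp-35D1 and 13.6, 14.1 and 15.1 CPM for cyp-43A1. All lay above the N2 libraries given earlier. For cyp-37A1 the N2 libraries were at 9.61, 9.17 and 8.96 CPM, the daf-2 libraries at 13.7, 17.5 and 13.7 CPM and the mu86 libraries at 13.4, 14.4 and 16.2 CPM. In mu86 against daf-2, cyp-37A1 differed by -0.03 ± 0.12. Each of the 6 calls was lost in some leave-one-out fit: the count was 0 without N2 replicate 1, N2 replicate 2 or mu86 replicate 2, and 1 without mu86 replicate 1 or 3.

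Loci in the pathways that serve P450 enzymes were given by their calls. Of the electron donors, emb-8, which encodes the P450 reductase, had mean levels of 235.2 CPM (N2) and 260 CPM (daf-2), and 0 of 3 loci (emb-8, cytb-5.1 and the locus of cytb-5.2) were called by edgeR in any of the 14 comparisons. Of the sterol and dafachronic acid genes that surround DAF-9, 2 of 8 tested were called in daf-2 against N2, both higher: ncr-2, a cholesterol transport gene (log2 difference 1.61 ± 0.49, adjusted p = 0.0302), and daf-12, the nuclear receptor for dafachronic acid (0.58 ± 0.19, adjusted p = 0.0486). Over all tested loci 10.9% were called higher in this comparison. In mu86 against daf-2, dhs-16, a dehydrogenase of that pathway, was called higher (3.29 ± 1.02, adjusted p = 0.0441). The mean level of daf-9 was 0.603 CPM (N2) and 0.871 CPM (daf-2), and it was not called.

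Of 13 tested regulators tied to P450 expression, 1 was called in daf-2 against N2, the Mediator subunit gene mdt-15 (log2 difference -0.20 ± 0.05, adjusted p = 0.0149). Over all tested loci 16.7% were called in this comparison, 10.3% in mu86 against daf-2 and 9.35% in mg54 against daf-2. In mu86 against daf-2, 1 was called higher, mdt-15 (0.20 ± 0.05, adjusted p = 0.0217), and 1 lower, the locus of the nuclear receptor gene nhr-86 (-0.56 ± 0.15, adjusted p = 0.0202). In mg54 against daf-2, 1 was called higher, the locus of nhr-8, also among the sterol genes (0.50 ± 0.15, adjusted p = 0.0416), and 1 lower, that of nhr-86 (-0.53 ± 0.15, adjusted p = 0.028). Of the 4 tested genes of heme uptake and trafficking, mrp-5, a heme exporter, was called higher in mg54 against daf-2 (0.38 ± 0.10, adjusted p = 0.0176). In mg54 against tm6659, 1 locus of the sterol list, 1 of the regulators and 1 of the heme genes were called higher, where 2.7% of all loci were. In mg54 against the daf-16a mean 1 heme gene was called higher, where 1.53% of all loci were.

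A minority of members followed the axis that the libraries share, 3 with replicate 3 above and 6 with it below replicate 2 in 7 of 7 genotypes and 39 with neither, against 26.3% above and 19.9% below of all tested loci. In 7 of 7 genotypes replicate 3 was below replicate 2 for cyp-31A3, cyp-31A5 and the loci of cyp-31A2, cyp-13A11/cyp-13A12, cyp-25A4 and cyp-33E2, and above it for cyp-29A3, cyp-35C1 and cyp-14A3. For cyp-35B1 replicate 3 was above in 4 genotypes and below in 3, and for cyp-13A2 it was above in 6 and below in 1. Without the libraries numbered 2, a choice made after seeing the data, 16 members were called higher and 2 lower in daf-2 against N2, where 6.76% and 3.44% of all loci were called. In mu86 against daf-2 they were 1 and 4 (1.87% and 3.16% of all loci), and in mg54 against daf-2 1 and 4 (1.66% and 2.73%). Calls over all loci fell as well, from 16.7% to 10.2%, from 10.3% to 5.03% and from 9.35% to 4.39% in these comparisons.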

How the data were processed

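Poly(A) RNA of whole day 1 adults was sequenced in 21 libraries with a kit that does not mark strand, so overlapping genes cannot be told apart. Per the submitters' processing notes, CASAVA 1.8.2, TopHat2 2.0.9 and Cufflinks 2.1.1 were used; no genome build is named there. The expected counts per locus and the FPKM values are as the authors deposited them, and 17 of the 48 tested members have fractional counts in some library. Counts were rounded and fitted with edgeR 4.0.16 (R 4.3.3): TMM scaling, filterByExpr, 1 quasi-likelihood model with a mean for each genotype, and 2-sided p-values adjusted by Benjamini-Hochberg over 12091 loci, called under 0.05. The common biological coefficient of variation was 0.346. Alternatives were RLE and upper-quartile scaling, other filters, DESeq2 1.42.0, limma-voom and limma 3.58.1 on log2(FPKM + 1) or log2(FPKM + 0.1), a replicate block and leaving out each library. Members were matched to the Ensembl annotation of WBcel235 by name (74 of 76 genes). The steps were run on simulated counts with a fixed spread and no effect shared by replicate number, and scaled counts stood in for FPKM. That run therefore does not cover the correlation between same-numbered libraries. Members and lists were chosen with earlier results of these data known. Per-library values are given for members called with a mean of at least 1 CPM, up to 12 in daf-2 against N2 and in mu86 against daf-2 and up to 6 elsewhere; low members named beside them were chosen after their values were seen. Columns left out numbered 0. Same-numbered libraries were read as paired where all 3 pairs of the genotypes compared had a correlation of deviations over 0.1. This reading per comparison was adopted with the calls known, and it holds in 12 of the 14 comparisons. The fits with a replicate block are given as counts of calls only. Every log2 difference, SE, adjusted p and leave-one-out result comes from a fit without the block, which leaves the pairing out.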

Additional observations from a re-analysis of the deposited data

How the results depend on the processing

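Of 1130 refits of called members, 876 kept the call, 252 lost it and 2 changed sign: cyp-33C9 in daf-2 against N2, at a log2 difference of -0.13 with FPKM + 1 and -0.14 with FPKM + 0.1 against 0.48. The cause was not tested. With a mean of at least 2 CPM, which tests 32 members and fewer low ones, called members were 15 in daf-2 against N2 (26 in the report). Of these, 12 were higher and 3 lower, against 11.5% and 10.6% of all loci. In mu86 against daf-2 they were 6 (10), 4 higher and 2 lower, against 5.93% and 6.69%. In mg54 against daf-2 they were 5 (9), 3 higher and 2 lower, against 5.2% and 6%. In mg54 against tm6659 they were 4 (10), 3 higher and 1 lower, and the share of all loci in that fit is not given here. In these last 3 comparisons lower calls no longer outnumbered higher ones, on only 6, 5 and 4 calls among 32 members. The other counts were 1 in the daf-16a mean against tm6659 (3), 1 in mg54 against the daf-16a mean (3) and 0 for additivity (1). The FPKM fits test 64 members, where the main fit tests 48. With FPKM + 1 called members were 10 in daf-2 against N2, 2 in tm5030 and 2 in tm5032 against daf-2 (1 each) and 0 in mu86 against N2 (6). They were 5 in the daf-16a mean against tm6659, 3 in the daf-16a mean against daf-2 (1) and 0 for additivity. With FPKM + 0.1 they were 11 in daf-2 against N2, 0 in mu86 against N2, 2 in the daf-16a mean against daf-2 and 0 for additivity. Of all loci 6.52% were called in daf-2 against N2 with FPKM + 1 and 6.37% with FPKM + 0.1. In tm5030 and tm5032 against daf-2 FPKM + 1 called 0.874% and 1.12%. DESeq2 gave 3 in tm5030 against daf-2, 4 in the daf-16a mean against daf-2, 5 in mg54 against the daf-16a mean and 2 for additivity. Of all loci it called 2.35% in tm5030 against daf-2, and limma-voom called 1.17%. Limma-voom gave 2 in tm5030 against daf-2, 2 in mu86 against N2, 5 in the daf-16a mean against tm6659 and 5 in the daf-16a mean against daf-2, where RLE scaling gave 2. Without the libraries numbered 2, chosen after seeing the data, they were 5 in mu86 against daf-2, 5 in mg54 against daf-2, 0 in mu86 against N2, 1 in the daf-16a mean against tm6659, 5 in mg54 against tm6659 and 0 for additivity. A count here or below without a share of all loci does not tell a change of members from a change over all loci.

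Same-numbered libraries deviated together for the numbers 2 and 3, with 21 of 21 pairs of genotypes over a correlation of 0.1 each, and less for the number 1, with 15 of 21 and a lowest value of -0.32. The median was 0.49 for same-numbered and -0.15 for other pairs, and 7 of 7, 7 of 7 and 4 of 7 libraries numbered 2, 3 and 1 correlated best with their own number, a hint from the data and not from the labels. All 3 same-numbered pairs were over 0.1 in each comparison below except daf-2 against N2 and mu86 against daf-2. With a replicate block the called members were 34 in daf-2 against N2, 17 in mu86 against daf-2, 16 in mg54 against daf-2, 2 in tm5030 and 2 in tm5032 against daf-2, 23 in mu86 against N2, 7 in the daf-16a mean against tm6659, 6 in the daf-16a mean against daf-2, 9 in mg54 against the daf-16a mean and 2 for additivity. Calls over all loci rose too, to 44.1% in daf-2 against N2 (28 members higher and 6 lower), 21.8% in mu86 against daf-2 (5 and 12) and 48.2% in mu86 against N2 (17 and 6).

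Leaving out 1 library at a time gave 18 to 24 calls in daf-2 against N2, 6 to 10 in mu86 and 7 to 9 in mg54 against daf-2, 1 to 1 in tm5030, 1 to 2 in tm5032 (2 without tm5032 replicate 3) and 0 to 0 in tm6659. It gave 0 to 7 in mu86 against N2, 0 to 0 in mg54 against mu86 and in tm5030 against tm5032, 1 to 4 in the daf-16a mean against tm6659, 1 to 2 in the daf-16a mean against daf-2, 2 to 4 in mg54 against the daf-16a mean, 6 to 10 in mg54 against tm6659 and 0 to 1 for additivity. Depth limits the low members: 16 loci could not be tested.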
